A study of Mus musculus with 6 samples.

Results

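The genes described here are 9 genes of contractile and actin-binding proteins, Acta2, Tagln, Myl9, Cnn2, Cnn3, Tpm1, Actn1, Mprip and Vcl, taken by gene name from the 54532 genes of a count table of cultured mouse endothelial cells. They were chosen as genes of the kind whose pre-mRNA the RNA-binding protein RBPMS is known to splice in contractile muscle. Counts per gene sum over all transcripts of a gene, so splicing itself cannot be seen in them. Of the 9 genes, 8 had a count in any library, 7 passed the filter on low counts, and 6 had at least 100 counts in every library.

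Endothelial cells, which form the inner lining of vessels, were kept in a complete mouse endothelial medium with serum and antibiotics and exposed for 72 h to lentivirus. The virus carried an empty vector in the 3 control libraries and drove overexpression of RBPMS in the 3 RBPMS libraries, so cells of both groups received a lentiviral vector. The vascular bed, the mouse strain and age, the promoter of the vector, and whether the cells were primary cultures or a line, are not stated in the labels. The title of the series concerns RBPMS in the ageing, failing heart. Nothing in the labels shows that the 3 libraries of a group came from separate cultures, so the p-values reflect spread between these samples alone, and that spread may be technical.

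Actin filaments and myosin produce force in all cells, but muscle and non-muscle cells use different genes for it. Smooth muscle builds its filaments from a smooth muscle actin with the calponin and transgelin proteins bound along them, whereas non-muscle cells rely on the beta and gamma actins and non-muscle myosin, and anchor stress fibres through alpha-actinin and vinculin at focal adhesions. Many of these genes are transcribed by serum response factor (SRF) with its actin-sensing cofactors of the MRTF family, which bind a DNA element called the CArG box. RBPMS promotes the splicing pattern of differentiated smooth muscle in transcripts of cytoskeletal genes such as Tpm1, Actn1 and Mprip.

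The promoter windows of the members that hold a CArG box or a near match are shown because 7 of the 9 members (all but Cnn3 and Mprip) are on the list of MRTF and SRF targets used further below. Windows are the 250 bases before the gene start in RefSeq (GRCm38.p6), 5′ to 3′ on the gene's strand, and capitals mark the box. Box positions count from that RefSeq start, which for Acta2, Myl9 and Cnn2 differs from the start in the gene coordinates given further below. The box was searched as a 10-letter element with 6 central A or T letters between CC and GG, or with 1 of those 6 letters being C or G as a near match. The element reads as the same pattern on both strands, so 1 search covers both. Windows were at hand for 8 of the 9 members. Exact boxes stood in 3 of them (Myl9, Cnn2, Vcl) and near matches alone in 1 (Acta2), while those of Cnn3, Tpm1, Actn1 and Mprip held neither form. Of all 32851 promoter windows of this length, 1.47% held an exact box and 8.59% an exact or near one. A match describes letters in the window and is not evidence of binding.

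The Acta2 window lies at chr19:34255374-34255623 on the minus strand, with near matches that start at -84 and -34 from the gene start.
Acta2: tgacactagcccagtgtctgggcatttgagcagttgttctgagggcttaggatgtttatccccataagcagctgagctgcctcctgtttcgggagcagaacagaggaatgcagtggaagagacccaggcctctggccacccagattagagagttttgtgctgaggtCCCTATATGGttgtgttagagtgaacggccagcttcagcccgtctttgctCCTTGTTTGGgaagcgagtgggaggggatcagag

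The Myl9 window lies at chr2:156775214-156775463 on the plus strand, with an exact box at -161 and a near match at -99.
Myl9: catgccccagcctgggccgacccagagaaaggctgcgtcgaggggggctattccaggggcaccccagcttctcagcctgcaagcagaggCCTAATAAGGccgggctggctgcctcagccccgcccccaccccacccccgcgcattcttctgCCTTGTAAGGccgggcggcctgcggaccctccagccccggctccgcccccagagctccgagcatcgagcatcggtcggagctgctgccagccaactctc

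The Cnn2 window lies at chr10:79988350-79988599 on the plus strand, with an exact box at -56.
Cnn2: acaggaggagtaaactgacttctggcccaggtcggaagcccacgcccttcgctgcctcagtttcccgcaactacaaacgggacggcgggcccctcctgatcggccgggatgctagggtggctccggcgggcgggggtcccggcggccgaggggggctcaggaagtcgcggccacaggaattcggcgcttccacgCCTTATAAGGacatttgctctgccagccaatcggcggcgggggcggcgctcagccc

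The Vcl window lies at chr14:20929148-20929397 on the plus strand, with an exact box at -227.
Vcl: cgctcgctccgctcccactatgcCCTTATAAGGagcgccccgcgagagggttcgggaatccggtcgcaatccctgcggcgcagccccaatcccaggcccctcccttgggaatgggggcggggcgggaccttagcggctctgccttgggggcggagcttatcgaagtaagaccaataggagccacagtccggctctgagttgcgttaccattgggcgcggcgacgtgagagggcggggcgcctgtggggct

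The libraries held 15779567 to 23076124 counts. Levels are counts per 1000000 counts of a library (CPM), scaled by the trimmed mean of M-values (TMM). The targeted gene, Rbpms, had 57.0, 56.8 and 55.1 CPM in the 3 controls, against 131, 147 and 133 CPM in the 3 RBPMS libraries, so the groups did not overlap. Control replicate 3 (control 3) stood apart: its log2 CPM correlated at 0.96 to 0.966 with the other libraries, which correlated at 0.994 to 0.997 among themselves. Against controls 1 and 2 it held more of short genes and less of long ones, with median log2 differences from 0.52 to -0.52 between the shortest and the longest of 5 equally filled classes of genes by annotated length. The comparison of each member is therefore given over all 6 libraries and over the 5 without control 3. Endothelial markers (10 listed, all with counts) summed to 15740 to 20310 CPM in controls and 17450 to 18390 CPM with RBPMS. The lowest of these was control 3, and controls 1 and 2 (19620 and 20310 CPM) lay above every RBPMS library. The most abundant of the 10 weighed most in this sum, with 7736, 7815 and 3688 CPM in the controls and 6044, 5433 and 5536 CPM with RBPMS. Over 5 libraries edgeR called 2 of the 10 higher and 2 lower, beside 7.24% of all genes called, and 5 had a positive log2 fold change. The 13 smooth muscle and pericyte markers summed to 157 to 185 and 187 to 203 CPM, almost all of it smoothelin (Smtn, mean 182 CPM), with Rgs5 and Kcnj8 at 0 and Myh11, Cnn1, Des, Lmod1 and Actg2 each at most 0.80 CPM. The 6 leukocyte markers summed to 42.5 to 47.0 CPM in controls and 54.8 to 59.8 CPM with RBPMS, nearly all from Cd68. The 5 mesothelial markers, mainly Msln, summed to 24.6 to 29.0 and 19.8 to 24.3 CPM. The part of these differences in the results below was not tested.

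Over all 6 libraries, none of the 7 members tested passed edgeR's quasi-likelihood test at an adjusted p under 0.05, and neither did any of the 13898 genes tested (0% called by edgeR, with 1050 genes at an unadjusted p under 0.05; 56 called by the DESeq2 Wald test and 0 by limma-voom). Of the members, 1 (Cnn2) had an unadjusted p under 0.05, beside 7.56% of all genes, and DESeq2 and limma-voom called 0 members. Without control 3 edgeR called 1 of the 7 members, Cnn2, which was lower with RBPMS, beside 7.24% of the 14123 genes tested (3.81% higher, 3.43% lower). The common biological coefficient of variation was 0.196 over 6 libraries and 0.0489 over 5. The median log2 fold change of the members, RBPMS against control, was 0.07 over 6 libraries and 0.0047 over 5, and that of all genes tested was -0.0083 and -0.0025. The sign of the members' median depended on the setting: over 6 libraries it was -0.13 with a per-library length trend, -0.04 with no filter on low counts (8 members) and -0.03 with a filter of 1 CPM in 2 libraries (6 members). Over 5 libraries it was -0.016 with a replicate block, -0.012 with the 1 CPM filter, -0.0089 with no filter, -0.0058 with the length trend and -0.00028 with total library size. It was also negative without control 1 (-0.063), RBPMS replicate 2 (-0.022) or RBPMS replicate 3 (-0.012). Both over 6 and over 5 libraries, 4 of the 7 members had a positive log2 fold change.

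**Figure D1:**
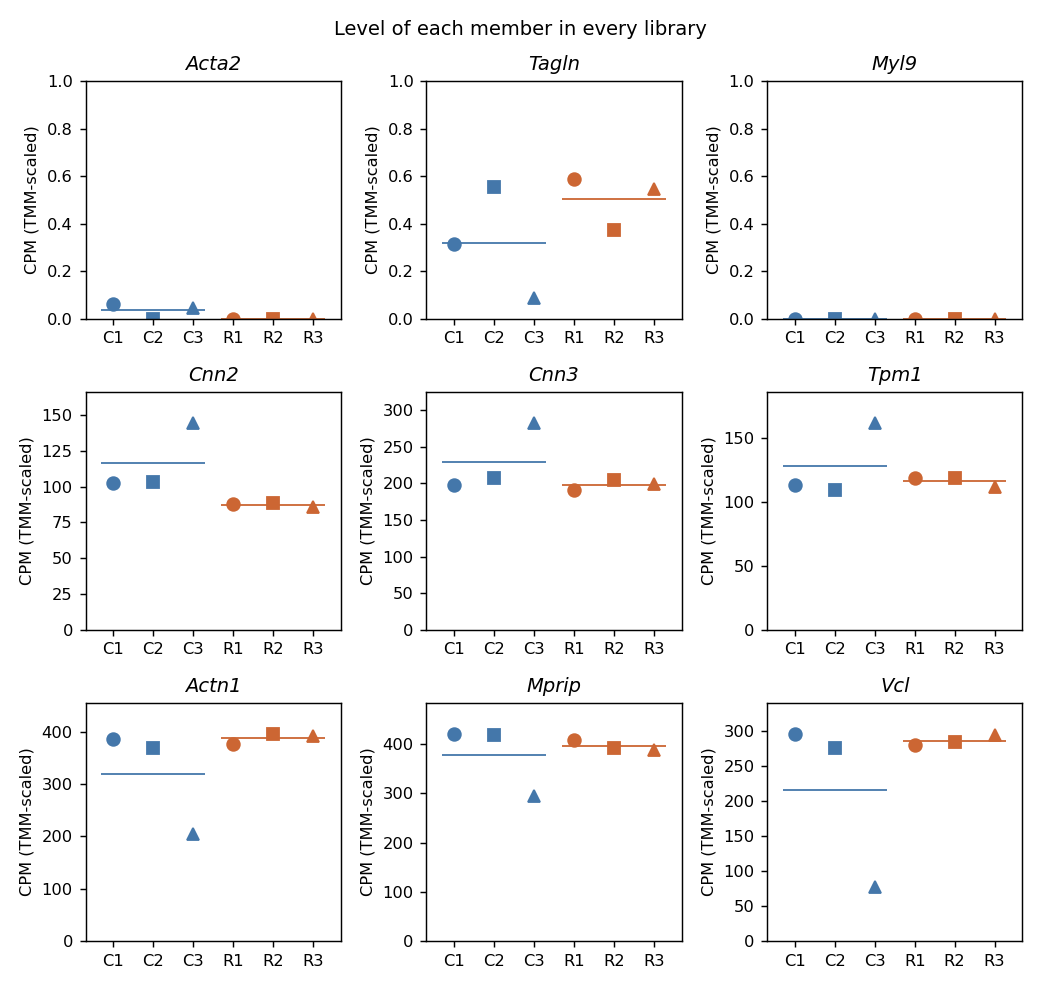
TMM-scaled CPM of each of the 9 genes in the 3 control libraries (C1 to C3, blue) and the 3 RBPMS libraries (R1 to R3, orange), with a horizontal line at each group's mean. Control 3 (blue triangle) lies above all other libraries for Cnn2, Cnn3 and Tpm1 and below all others for Actn1, Mprip and Vcl, and the RBPMS libraries of Cnn2 lie below every control.

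Per kilobase of annotated length, 6 members were well expressed and the 3 genes best known from smooth muscle were at or near 0. Mean levels over the 6 libraries were 70.3 CPM per kb for Cnn3, 64.1 for Actn1, 41.5 for Cnn2, 30.7 for Vcl, 29.0 for Mprip and 18.9 for Tpm1, then 0.206 for Tagln, 0.010 for Acta2 and 0 for Myl9. The SD over the 6 libraries, control 3 included, was 11.2 for Cnn3 and 13.4 for Actn1, and 10.5 for Vcl and 3.52 for Mprip. In control 3 Cnn3 (92.8 CPM per kb) lay far above Actn1 (37.0) and Vcl (9.41) below Mprip (22.1). Without control 3, Vcl (33.7 to 36.1) lay above Mprip (29.1 to 31.5). Cnn3 (63.0 to 68.1) and Actn1 (66.8 to 71.5) then overlapped, with Actn1 the higher in every library but control 2. The library range of Cnn2 (34.8 to 58.7 CPM per kb) overlapped that of Vcl (9.41 to 36.1), and that of Actn1 (37.0 to 71.5) only through control 3. Tpm1 (16.8 to 24.9 CPM per kb) overlapped Mprip (22.1 to 31.5) only through control 3 in both genes. Cnn3 stood at the 95.1st percentile of the tested genes on this scale and Tpm1 at the 78.8th.

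Acta2 encodes smooth muscle alpha-actin (ENSMUSG00000035783, chr19:34241090-34255336, minus strand, GRCm38, as all positions here). It had 1, 0 and 1 counts in the control libraries and 0, 0 and 0 with RBPMS. These 2 counts among 115231557 give 0.0174 CPM, with an exact 95% Poisson interval of 0.0021 to 0.0627 CPM that covers counting error only, and 30 of its 2165 sequence words of 31 bases also occur in other genes, among them Actg1. No difference between the groups was detectable at this depth. The other actin genes were carried almost wholly by beta-actin (Actb) and gamma-actin (Actg1), the cytoplasmic actins, which in CPM per kb made up 47.9 to 50.5% and 49.5 to 52.1% of the family. Acta2 took at most 0.0025% of it in any library, and Acta1, Actc1 and Actg2, the other muscle actins, at most 0.0069%. Actb had 1911, 1830 and 2521 CPM in the controls and 1658, 1688 and 1710 CPM with RBPMS, and every RBPMS library lay below every control. Neither Actb (log2 fold change -0.15 ± 0.046 SE over 5 libraries, adjusted p = 0.0558) nor Actg1 (-0.14 ± 0.047, adjusted p = 0.0829) passed the edgeR test (-0.31 and -0.26 over 6 libraries). The DESeq2 Wald test and limma-voom each called both lower over 5 libraries, and edgeR with total library size called 1 of them. Of their sequence words, 23.6% for Actb and 40.2% for Actg1 also occur in other genes, so their counts are uncertain.

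Myl9 encodes the smooth muscle form of the regulatory myosin light chain, whose phosphorylation switches on the motor (ENSMUSG00000067818, chr2:156775420-156781658, plus strand). It had 0 counts in all 6 libraries, which allows a level of up to 0.0545 CPM in the controls and 0.0499 CPM with RBPMS (3 counts of each group's total), and the exact 95% Poisson interval reaches 0.0670 and 0.0613 CPM. The non-muscle regulatory light chains were present instead, with Myl12a making up 93.7 to 95.7% of the family in CPM per kb and Myl12b the rest. Myl12a had 143, 146 and 281 CPM in the controls and 121, 127 and 120 CPM with RBPMS, with control 3 highest and all RBPMS libraries lowest. It fell in the edgeR fit over 5 libraries (log2 fold change -0.24 ± 0.047, adjusted p = 0.0030), and over 6 libraries its log2 fold change was -0.63 with an adjusted p of 0.587. Myl12a and Myl12b share sequence, and a second annotated gene record of the name Myl12b overlaps exons of both, so the split between them is uncertain.

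Tagln encodes transgelin, or SM22-alpha, an actin-bundling protein of smooth muscle (ENSMUSG00000032085, chr9:45929619-45936058, minus strand). It had 5, 9 and 2 counts in the controls and 12, 8 and 10 with RBPMS, and the groups overlapped. Summed over libraries this was 0.291 CPM in controls (exact 95% Poisson interval 0.166 to 0.472) and 0.499 CPM with RBPMS (0.337 to 0.712). The log2 fold change was 0.72 ± 0.60 over 6 libraries (edgeR adjusted p = 0.612) and 0.19 ± 0.52 over 5 (adjusted p = 0.884), where leaving out control 1 as well turned it to -0.15 and leaving out control 2 gave 0.66. Even these few counts are uncertain, since 67.9% of the exonic bases of Tagln are covered by other genes, 62.4% by the antisense gene Gm48529, and no source used here says whether the counting used strand. Its paralog Tagln2, the form found widely outside muscle, made up 98.1 to 99.6% of the transgelin genes in CPM per kb. Tagln2 had 67.8, 62.6 and 85.1 CPM in the controls and 48.8, 50.8 and 51.9 CPM with RBPMS, so every RBPMS library lay below every control. It fell by 0.37 ± 0.065 on the log2 scale over 5 libraries (edgeR adjusted p = 0.0011), and by 0.51 over 6 (adjusted p = 0.587).

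Cnn2 encodes calponin 2, the calponin of non-muscle cells, which binds actin and slows its turnover (ENSMUSG00000004665, chr10:79988584-79996062, plus strand). It had 103, 103 and 144 CPM in the controls and 88.1, 88.9 and 85.5 CPM with RBPMS. Every RBPMS library lay below every control, and the lower mean with RBPMS did not rest on the high value of control 3. The mean fell from 103 ± 0.412 CPM in controls 1 and 2 (SD, n = 2) to 87.5 ± 1.77 CPM (SD, n = 3). The log2 fold change was -0.23 ± 0.050 (95% interval -0.34 to -0.13, edgeR adjusted p = 0.0053) over 5 libraries, and -0.42 ± 0.15 (-0.78 to -0.05, adjusted p = 0.587) over all 6. The call over 5 libraries was lost, at an unchanged direction, when a single further control was left out (-0.24 with an adjusted p of 0.0542 without control 1, and -0.23 with 0.0509 without control 2), and DESeq2 and limma-voom also called Cnn2 over 5 libraries. In bulk RNA, fewer cells that express a gene and less of its RNA per cell cannot be told apart. Cnn2 overlaps no other gene in its exons and shares 1.18% of its sequence words of 31 bases with other genes.

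Cnn3 encodes calponin 3, an acidic calponin of stress fibres in non-muscle cells (ENSMUSG00000053931, chr3:121426497-121458207, plus strand). Its level was 198, 207 and 282 CPM in the controls and 191, 205 and 198 CPM with RBPMS. Apart from control 3, which was high, the groups overlapped. The log2 fold change was -0.21 ± 0.16 over 6 libraries (edgeR adjusted p = 0.602) and -0.03 ± 0.047 over 5 (adjusted p = 0.794), with a 95% interval of -0.13 to 0.07, and was 0.0028 when control 2 was left out as well. Of its sequence words 32.0% occur elsewhere, largely in the overlapping Gm42928 and in pseudogenes.

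Control 3 was high for both calponins, and the share of Cnn2 in the family varied less than its level. Cnn2 made up 39.1, 38.2 and 38.7% of the calponin genes (CPM per kb) in controls 1 to 3, against 36.3, 34.9 and 34.7% with RBPMS, and the smooth muscle calponin Cnn1 at most 0.049%. All 3 controls, control 3 included, lay above all RBPMS libraries. The mean share was 38.6 ± 0.46% in controls and 35.3 ± 0.84% with RBPMS (SD, n = 3 each), a difference of -3.35 points, with p = 0.1 in a two-sided exact permutation test, the smallest that 3 against 3 allows, and 0.25 adjusted over the 5 shares tested. Without control 3 the difference was -3.31 points and the exact permutation p again 0.1, the smallest for 2 against 3. The share of Cnn3 is nearly its complement, 61.4 ± 0.46% in controls and 64.7 ± 0.82% with RBPMS (SD, n = 3 each).

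**Figure D2:**
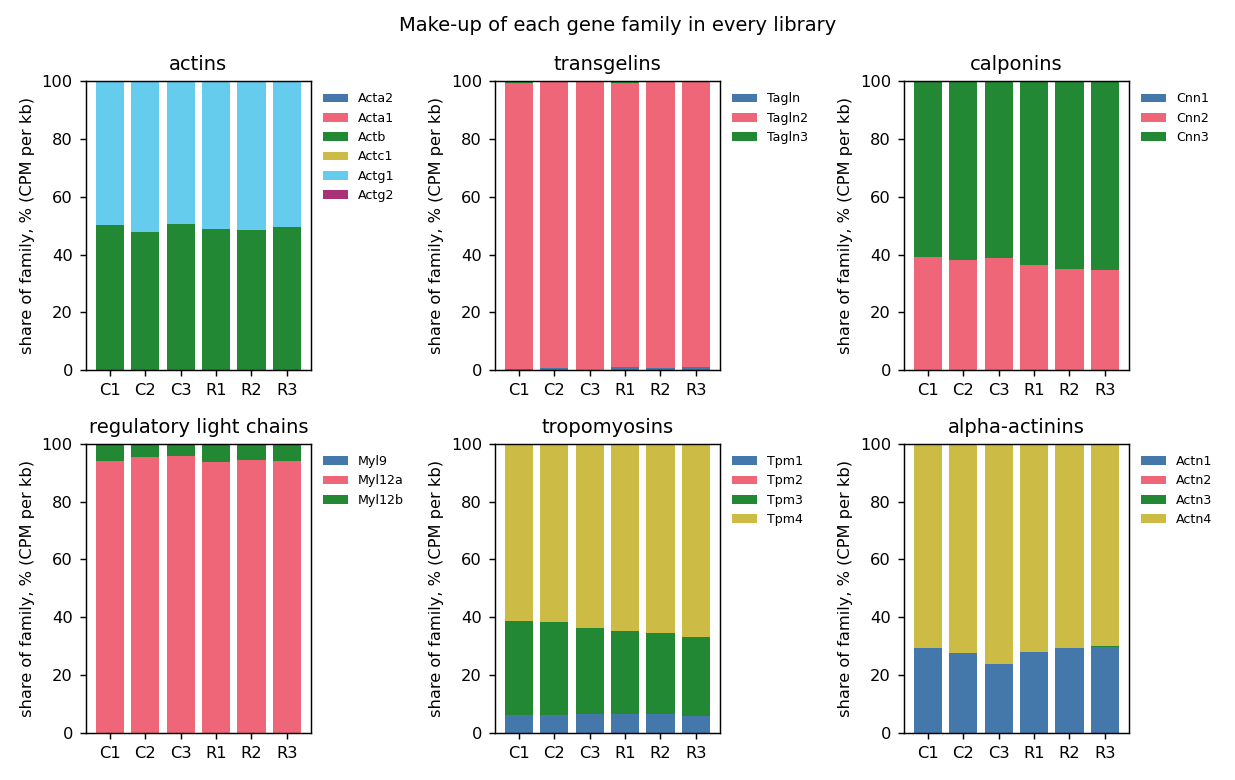
Make-up of the actin, transgelin, calponin, regulatory light chain, tropomyosin and alpha-actinin families in each control (C1 to C3) and RBPMS (R1 to R3) library, as a percent of the family's summed CPM per kb. Muscle forms (Acta2, Tagln, Cnn1, Myl9, Tpm2, Actn2) are absent or too thin to see, and the Cnn2 share is 38.2 to 39.1% in controls and 34.7 to 36.3% with RBPMS. The Tpm3 share is 29.6 to 32.2% in controls and 27.5 to 28.8% with RBPMS, and the Tpm4 share 61.5 to 63.8% and 64.8 to 66.8%.

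Tpm1 encodes alpha-tropomyosin, which lies along actin filaments and is alternatively spliced between muscle and non-muscle forms (ENSMUSG00000032366, chr9:67022590-67049406, minus strand, 21 annotated transcripts). Gene counts gave 114, 109 and 162 CPM in the controls and 119, 119 and 112 CPM with RBPMS, with control 3 highest and the other libraries overlapping. The log2 fold change was -0.14 ± 0.17 over 6 libraries (edgeR adjusted p = 0.689) and 0.07 ± 0.049 over 5 (95% interval -0.04 to 0.17, adjusted p = 0.499), so its direction turned with control 3. Tpm1 was a minor tropomyosin gene, with 6.38 ± 0.23% of the family's CPM per kb in controls and 6.23 ± 0.38% with RBPMS (SD, n = 3 each, exact permutation p = 0.7). Tpm4, a low molecular weight tropomyosin of non-muscle cells, rose in the edgeR fit over 5 libraries (376, 370 and 528 CPM in the controls against 403, 411 and 438 CPM, log2 fold change 0.17 ± 0.048, adjusted p = 0.0390). It had -0.02 over 6 libraries, and its call was lost whichever further library was left out (0.13 to 0.19, adjusted p 0.0544 to 0.177). Tpm3, the gene of gamma-tropomyosin, was lower in every RBPMS library than in every control without passing the edgeR test (-0.13 ± 0.044 over 5 libraries, adjusted p = 0.0907, and -0.25 over 6). The DESeq2 Wald test called Tpm3 lower over 5 libraries. Of the family's CPM per kb, Tpm3 made up 32.2, 32.2 and 29.6% in the controls and 28.8, 28.0 and 27.5% with RBPMS. Tpm4 made up 61.5, 61.6 and 63.8% against 64.8, 65.5 and 66.8%. Neither share overlapped between the groups, and neither was tested. Of their sequence words, 27.0% for Tpm3 and 20.0% for Tpm4 also occur in other genes, so their counts and the shares of this family are uncertain. Tpm2, the beta-tropomyosin of muscle, had 0 counts.

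Actn1 encodes alpha-actinin 1, the cross-linker of actin at stress fibres and focal adhesions (ENSMUSG00000015143, chr12:80167547-80260371, minus strand). It had 387, 370 and 205 CPM in the controls and 378, 396 and 393 CPM with RBPMS. Control 3 was low and the remaining libraries overlapped. The log2 fold change was 0.28 ± 0.24 over 6 libraries (edgeR adjusted p = 0.614) and 0.04 ± 0.046 over 5 (95% interval -0.05 to 0.14, adjusted p = 0.680). Actn1 made up 26.9 ± 2.85% of the alpha-actinin genes in CPM per kb in controls and 29.1 ± 0.95% with RBPMS (SD, n = 3 each, exact permutation p = 0.2), and Actn4, the other non-muscle alpha-actinin, nearly all the rest. The sarcomeric Actn2 had 0 counts and Actn3 at most 0.44 CPM.

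Mprip encodes a scaffold that brings myosin phosphatase to stress fibres (ENSMUSG00000005417, chr11:59661305-59780860, plus strand). Its level was 420, 418 and 295 CPM in the controls and 408, 393 and 388 CPM with RBPMS. All 3 RBPMS libraries lay below controls 1 and 2 but above control 3. Its log2 fold change over 6 libraries was 0.07 ± 0.16 (edgeR adjusted p = 0.834) and over 5 it was -0.08 ± 0.045 (95% interval -0.17 to 0.015, adjusted p = 0.339). Mprip and Cnn2 were the 2 of 7 tested members whose groups did not overlap over 5 libraries, both lower, beside 37.4% of all genes tested (19% lower); over 6 libraries Cnn2 alone did not overlap, beside 24.7% (12.5% lower).

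Vcl encodes vinculin, which links talin and actin at focal adhesions (ENSMUSG00000021823, chr14:20929398-21033676, plus strand). It had 296, 276 and 77.0 CPM in the controls and 281, 285 and 294 CPM with RBPMS. Control 3 lay far below every other library, and among the other 5 libraries the groups overlapped. The log2 fold change was 0.41 ± 0.45 over 6 libraries (edgeR adjusted p = 0.669) and 0.005 ± 0.047 over 5 (adjusted p = 0.973), with a 95% interval of -0.094 to 0.103. The gene Ap3m1 on the opposite strand overlaps 25.5% of the exonic bases of Vcl, so reads could be split between them. Its partner talin 1 (Tln1), which connects integrins to vinculin, had a log2 fold change of -0.01 ± 0.045 over 5 libraries and 0.27 over 6, and in control 3 it too was low, at 342 CPM against 742 and 735 CPM in controls 1 and 2.

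**Figure D3:**
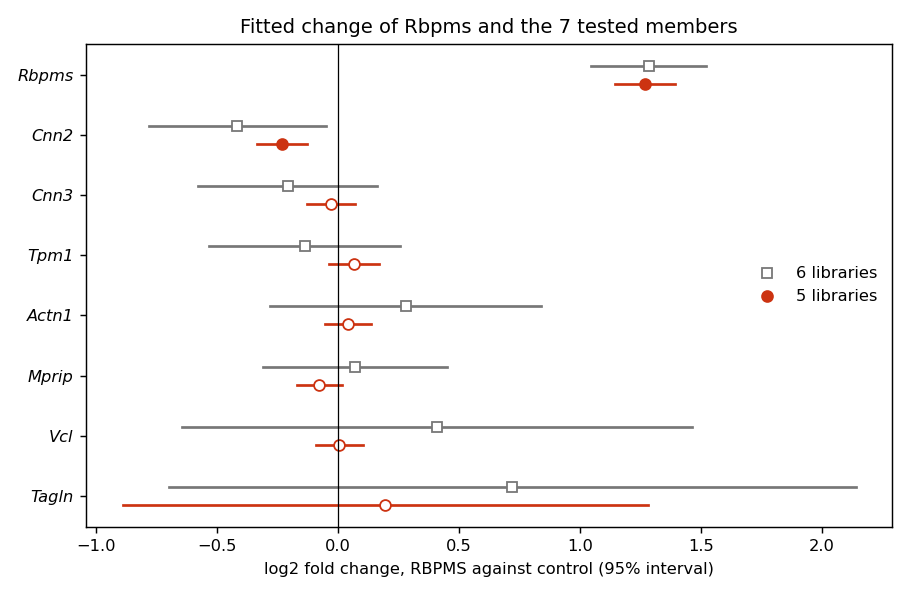
Log2 fold change of RBPMS against control with its 95% interval for Rbpms and the 7 tested members, over 6 libraries (squares) and over 5 without control 3 (circles). Filled symbols have an edgeR adjusted p under 0.05, which only Rbpms and Cnn2 reach, and only over 5 libraries. The intervals over 5 libraries are narrower for every gene.

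Control 3 stood above controls 1 and 2 for 3 of the well-expressed members and below them for the other 3, and not always as genes of like length did. Its log2 difference from controls 1 and 2 was 0.49 for Cnn2 (annotated length 2460 bases) and 0.48 for Cnn3 (3037 bases), beside a median of 0.30 in their length class. Mprip, the longest member (13327 bases), had -0.51 beside a median of -0.52. Tpm1 (6485 bases) had 0.54 in a class with a median of -0.20, at its 92.7th percentile. Actn1 (5533 bases) had -0.88 in the same class, at the 8.49th percentile. Vcl (8191 bases) had -1.88, at the 1.37th percentile of a class with a median of -0.52. Between controls 1 and 2 the same difference ran from -0.10 to 0.06 in these 6 genes.

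**Figure D4:**
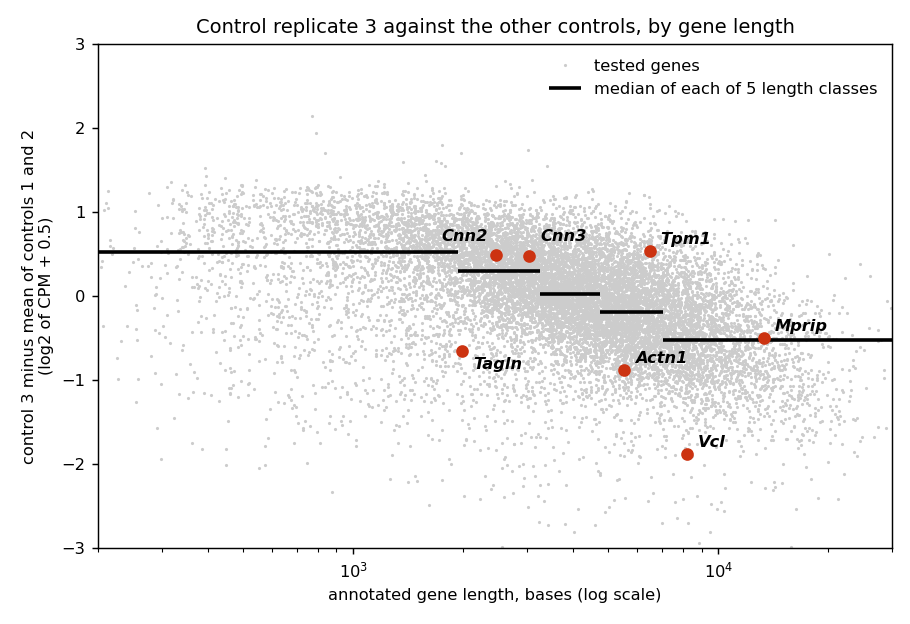
Difference of control 3 from the mean of controls 1 and 2, as log2 of CPM + 0.5, against annotated gene length on a log axis, for all tested genes within the axes (grey) and the 7 tested members (red), with the median of each of 5 length classes (black). Tpm1 lies above and Vcl and Actn1 below most genes of like length, and Mprip lies on the median of its class.

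Cnn2 was the member singled out for its values, so the genes with the most similar profile are given for it as a description. Over 6 libraries the highest Pearson correlations of log2 CPM were with Atp5b (0.9985), Cirbp (0.9973) and Calml4 (0.997), and 630 of 6143 genes averaging a log2 CPM of 5 or more (10.3%) reached 0.95. Over 5 libraries they were with Pold2, Cdk16 (both 0.9988) and Rps23 (0.9984), and 214 genes (3.48%) reached 0.95. No gene was among the leading 3 in both sets, and with so few points that share libraries these values carry no test.

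The genes around the members were taken from lists of the contractile and adhesion machinery. Over 6 libraries edgeR called 0 genes of any list, and counts from here on are over 5 libraries unless stated. Besides the members, 73 of 88 listed genes were tested, of which 7 were called higher and 11 lower (24.7%). Of all genes tested 7.24% were called (3.81% higher, 3.43% lower), which is the background over all levels for each list below. Most of the 73 tested listed genes are abundant, and abundant genes were called more often. Among the 60 that averaged a log2 CPM of 5 or more, 7 were higher and 10 lower (28.3%). Of 6144 genes at that level 11.9% were called (6.3% higher, 5.63% lower), the background of like level for the abundant genes of each list. The lists were chosen with earlier results of these data known, so the shares called describe the lists and do not test them. Of the 18 genes called, 4 (Myh9, Myl12a, Tagln2 and Lpp) kept their call whichever 1 of the 5 libraries was left out.

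Of 9 tested smooth muscle contractile genes, 1 was called higher and 0 lower, and the median was 0.02 (0.05 over 6 libraries). The call was Csrp1, a LIM-domain protein of the actin cytoskeleton (285, 295 and 393 CPM in the controls, 339, 342 and 323 CPM with RBPMS, log2 fold change 0.21 ± 0.046). Its groups overlapped with control 3 included (0.05 over 6 libraries), and the call was lost without control 1 (0.18, edgeR adjusted p = 0.105).

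Non-muscle myosin genes were lower where called. Of 6 tested genes 3 fell and 0 rose, with a median of -0.15 over 5 libraries and over 6. Myh9, the heavy chain of non-muscle myosin IIA, had 2013, 1968 and 879 CPM in the controls and 1679, 1588 and 1643 CPM with RBPMS. Control 3 lay far below the RBPMS libraries, so the log2 fold change was -0.28 ± 0.047 over 5 libraries (edgeR adjusted p = 6.6e-04) and 0.01 over 6. The essential light chain gene Myl6 had 282, 271 and 551 CPM against 250, 239 and 225 CPM, with every RBPMS library lowest (-0.22 ± 0.049, adjusted p = 0.0087, and -0.63 over 6 libraries), and lost its call without control 1 (-0.19, adjusted p = 0.107). Myl12a, given above, was the other gene called. Myh10, the heavy chain of myosin IIB, had 0.04 ± 0.045, and 0.32 over 6 libraries.

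Of 22 tested focal adhesion genes, 2 rose and 3 fell. The median was -0.01, with 10 of 22 positive, and turned to 0.08, with 17 positive, when control 3 was included. Lpp, a LIM protein of adhesions that binds alpha-actinin, had 219, 208 and 76.0 CPM in the controls and 255, 264 and 248 CPM with RBPMS, above every control (0.26 ± 0.047, edgeR adjusted p = 0.0014, and 0.61 over 6 libraries). Filamin C (Flnc, 0.20 ± 0.053), an actin cross-linker of muscle, rose too (0.58 over 6 libraries), and kept its call only without RBPMS replicate 3 (0.25) among the 5 libraries, with 0.16 to 0.21 and adjusted p of 0.102 to 0.152 without any of the others. Those that fell were Pdlim1 (-0.23 ± 0.053) and Pdlim5 (-0.26 ± 0.057), both of which encode PDZ and LIM proteins that bind alpha-actinin, and filamin A (Flna, -0.16 ± 0.047). Over 6 libraries Pdlim1 had -0.47 and Pdlim5 -0.21. Pdlim1 lost its call without control 2 (-0.19, adjusted p = 0.114) or RBPMS replicate 1 (-0.20, 0.0657), and Pdlim5 without control 1 (-0.22, 0.124). Flna kept its call only without control 2 (-0.20), with -0.18 to -0.12 and adjusted p of 0.0854 to 0.293 without any of the others, and had 0.15 over 6 libraries. The list held 1 higher and 1 lower call without control 1 or without RBPMS replicate 1.

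Calls among MRTF and SRF targets were all downward. Of 18 tested genes, 6 fell and 0 rose, beside 3.43% of all genes lower and 3.81% higher. Among all genes averaging a log2 CPM of 5 or more, 5.63% were lower and 6.3% higher. A negative log2 fold change was found in 13 of the 18, beside 50.65% of all genes, and the median was -0.15, beside -0.0025 over all genes. The 6 were Cnn2, Myh9, Flna, the fibronectin receptor subunit Itga5 (559, 591 and 445 CPM in the controls, 518, 496 and 495 CPM with RBPMS, -0.19 ± 0.046), the actin-binding cytokinesis protein gene Anln (70.3, 65.3 and 49.9 CPM against 47.9, 52.2 and 55.9 CPM, -0.38 ± 0.070) and thrombospondin 1 (Thbs1, 24.6, 20.2 and 11.1 CPM against 13.9, 17.7 and 14.6 CPM, -0.53 ± 0.11). For Myh9, Flna, Itga5, Anln and Thbs1 control 3 lay below or within the RBPMS range, so the groups overlapped over 6 libraries, while Cnn2 did not overlap. Over 6 libraries Itga5 had -0.08, Anln -0.25 and Thbs1 -0.27. Without control 1 the list held 2 calls, with Anln at -0.33 (edgeR adjusted p = 0.0504) and Thbs1 at -0.39 (0.140), and Itga5 lost its call without control 2 (-0.15, 0.145) or RBPMS replicate 2 (-0.18, 0.0543). Of the other members on this list Vcl, Tpm1, Actn1 and Tagln had the values given above and did not pass. Over 6 libraries the median was -0.11, with 8 of the 18 positive (5 of the 18 over 5 libraries), while 50.96% of all genes were negative.

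Among 6 tested regulators of that pathway, 1 fell and 0 rose. Mkl2, which encodes the SRF cofactor MRTF-B, had 451, 474 and 191 CPM in the controls and 405, 390 and 400 CPM with RBPMS (log2 fold change -0.21 ± 0.046, edgeR adjusted p = 0.0052, and 0.10 over 6 libraries), and lost its call without control 2 (-0.18, adjusted p = 0.0728). Srf had -0.08 ± 0.062 (0.10 over 6 libraries) and Mkl1, the gene of MRTF-A, 0.05 ± 0.075 (0.31 over 6 libraries), neither called. The median of the list was -0.04 over 5 libraries and 0.10 over 6. Myocd, the SRF cofactor of smooth and heart muscle, had 0 counts.

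None of the 10 tested muscle genes linked to RBPMS-dependent splicing, among them Tpm1, Actn1, Mprip and Vcl, was called by edgeR over 5 libraries, and their median log2 fold change was 0.02. Over 6 libraries the median was 0.16, with 9 of the 10 positive and 0 called. The most abundant one named here was caldesmon (Cald1, 0.02 ± 0.048), an actin-binding brake on myosin, with 1452, 1458 and 1131 CPM in the controls and 1434, 1442 and 1546 CPM with RBPMS (0.13 over 6 libraries). Smtn, which is also the leading smooth muscle marker, was higher in every RBPMS library than in every control and did not pass (0.13 ± 0.050, adjusted p = 0.136, and 0.18 over 6 libraries). These are levels per gene, and shifts between transcripts of one gene, the level at which a splicing regulator acts, were not analysed here.

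**Figure D5:**
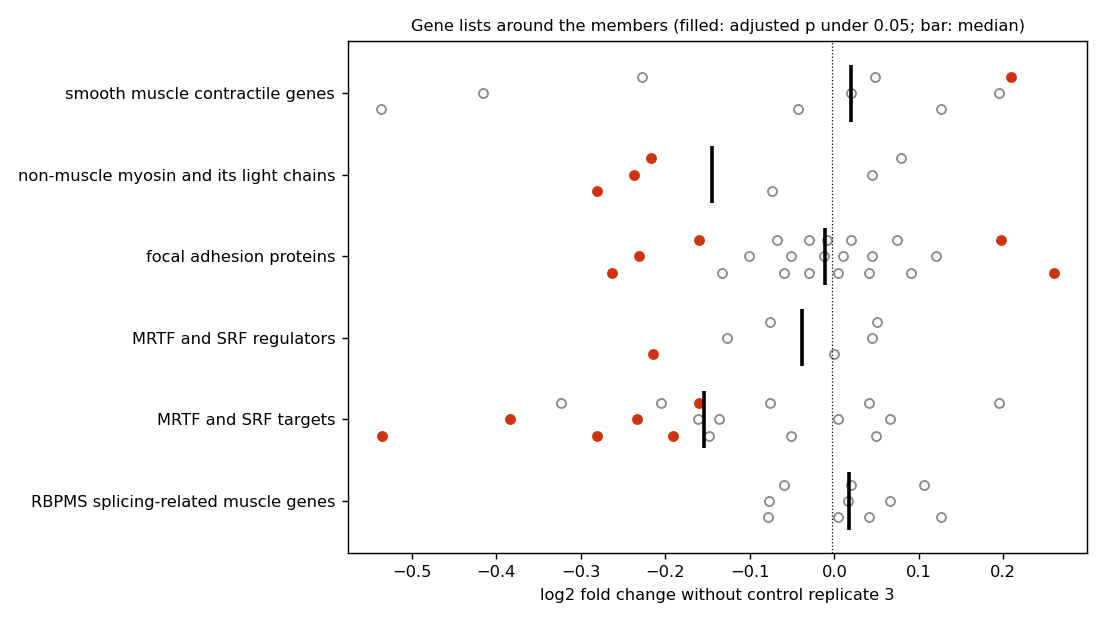
Log2 fold change without control 3 of every tested gene of 6 gene lists around the members (points, filled where the edgeR adjusted p is under 0.05), with each list's median (bar) and the median of all tested genes (dotted line). All 6 filled points of the MRTF and SRF targets and all 3 of the non-muscle myosin genes lie below zero.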

How the data were processed

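RNA of 3 control and 3 RBPMS libraries was sequenced after ribosomal RNA removal and Trizol extraction, per the labels' protocols. Values are the authors' deposited counts, 1 whole number per gene and library. FastQC, Salmon and the mm10 build are named in the submitters' processing notes. Their versions, how reads became whole counts and whether strand was used are not stated there or in the labels. Counts of overlapping genes and near-identical copies are therefore uncertain. The sample titles gave groups and replicate numbers.

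They were analysed without change in R 4.3.3 with edgeR 4.0.16 (filterByExpr by group, TMM, quasi-likelihood test with group as the only term, Benjamini-Hochberg adjustment over all tested genes, call at an adjusted p under 0.05), over 6 libraries and over 5 without control 3. SE and 95% intervals follow from each fold change and its F value. Shares within gene families used exact two-sided permutation tests. DESeq2 1.42.0 and limma 3.58.1 (voom) served as alternatives, beside other normalisations and filters, a replicate block, a per-library loess trend on gene length (span 0.3) and leaving out each library. Script steps were tested on simulated data. Libraries of a group differed by a chi-square of at least 3.19 per degree of freedom (genes whose counts sum to 10 or more), so none was a copy of another.

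The members and the gene lists were chosen with earlier results of these data known. Named genes were all members, Rbpms, the members' gene families and, of each other list, the called genes with the smallest p, up to 4, or 2 abundant ones where none was called. In the MRTF and SRF target list and the focal adhesion list all called genes are named. Some of these genes, and Tln1, Smtn, Srf, Mkl1, Myocd and Myh10, were chosen after their values were seen. The planned search for genes most like Acta2 and Tagln was not made, since they had at most 12 counts in a library, and was made for Cnn2 instead, also after its values were seen. Promoter sequences are from RefSeq (GRCm38.p6), and overlaps and shared sequence words from GENCODE M21. The listed genes that are counted in the text but belong to items not reported here are not named.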

Additional observations from a re-analysis of the deposited data

How the results depend on the processing

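Over 6 libraries 0 genes passed edgeR's test, and 5 did with no filter on low counts, 56 with the DESeq2 Wald test, 3 with the length trend and 0 to 1022 when each library was left out in turn, the highest without control 3. Members called ranged from 0 to 1 in those fits, the 1 being Cnn2 without control 3. Over 5 libraries 1022 genes were called, and 415 to 1017 with a further library left out (415 without control 1, 616 without RBPMS replicate 1, 627 without control 2), with 0 to 1 members called. Under the other settings Cnn2 kept its call over 5 libraries (adjusted p 0.0030 to 0.0150).

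Directions turned only in members that were not called. Over 6 libraries Mprip was -0.18 with the length trend and ranged from -0.079 to 0.15 with 1 library left out, and Tpm1 from -0.24 to 0.066. Over 5 libraries Vcl was -0.016 with the replicate block, -0.00028 with total library size and -0.0058 with the length trend, and ranged from -0.044 to 0.053 with a library left out, Tagln from -0.15 to 0.66 and Cnn3 from -0.063 to 0.0028. The share difference of Tpm1 was 0.14 points (6 libraries) and 0.46 points (5) without division by length, and ranged from -0.26 to 0.075 and from -0.135 to 0.20 points with a library left out; that of Actn1 over 5 libraries ranged from -0.18 to 1.45 points. The cause of these turns was not tested.

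Same-numbered libraries showed correlations of 0.0412, -0.0382 and -0.0025 of their deviations from the group means. The control mean included the library that stood apart, which weighs on the deviations of every control. These correlations therefore cannot decide whether the replicate numbers pair the samples. With the replicate block 0 genes were called over 6 libraries and 917 over 5, where Cnn2 had -0.22 (adjusted p = 0.0150) and Tpm4, Flna and Itga5 were no longer called (adjusted p 0.0508 to 0.123). Depth limits Acta2, Myl9 and Tagln, whose counts of at most 12 per library leave wide intervals.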
